A study of Homo sapiens with 2 samples.

Results

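The ATP-binding cassette (ABC) transporter genes were described in SUDHL6 and HT, 2 established human cell lines derived from diffuse large B cell lymphoma. A gene was taken as a member where a probe set was annotated to it alone and its symbol was ABCA, ABCB, ABCC, ABCD, ABCE, ABCF or ABCG followed by digits. This gave 39 of the 14232 genes with a value. Each of the 39 had a single such probe set, so no choice between probe sets was needed. Both lines were untreated and grown in the same serum-containing RPMI medium, and each was hybridised to 1 Affymetrix exon array. The series belongs to work on an inhibitor of Polycomb repressive complex 2, and the arrays give the state of the lines without it. No replicate exists for either line, so no difference could be set against a spread between cultures and no p-value or error is given. The number of arrays limits the precision of every value.

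ABC proteins share a nucleotide-binding domain that hydrolyses ATP. Most are membrane transporters that move lipids, peptides, metal complexes, bile salts, conjugated metabolites or drugs across the plasma membrane or the membranes of mitochondria, lysosomes and peroxisomes. Members of ABCA and ABCG mainly handle lipids and sterols, ABCB is mixed, ABCC exports organic anions, and ABCD carries fatty acyl-CoA into peroxisomes or cobalamin out of lysosomes. ABCE and ABCF proteins have no membrane domain and act on ribosomes and translation. In lymphoma the family is best known for ABCB1, ABCC1 and ABCG2, which pump cytotoxic drugs out of cells.

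Of the 39 ABC genes, 4 had a log2 difference of 1 or more between the lines. ABCA1, ABCB10 and ABCC4 were higher in SUDHL6, and ABCD3 was higher in HT. The 4 belong to 4 different subfamilies, and each was the only gene of its subfamily with such a difference. Values are log2 expression after RMA, and differences are SUDHL6 minus HT. The count takes genes with a difference of 1 or more in either direction whose higher value is not below the background level of that line. The background level is the 95th percentile of 225 olfactory receptor genes, 3.81 in SUDHL6 and 4.11 in HT, and a gene is said to reach it where its higher value does. By the same rule 8.12% of all genes were counted, 3.50% as higher in SUDHL6 and 4.62% as higher in HT. The 4 of 39 ABC genes make up 10.3%, a share near that of all genes. Only genes that reach the level can be counted. Among those, 4 of 17 ABC genes (23.5%) were counted, against 12.3% of all genes. Neither pair of shares was tested.

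The stretches of 250 bases before the annotated transcription start of these 4 genes are shown because these were the genes of the family counted as different. They were taken from RefSeq on GRCh38.p14 and read 5′ to 3′ on the strand of the gene. Capitals mark matches, on either strand, to the GC box (GGGCGG or CCGCCC), the E-box (CACGTG), the nuclear receptor half-site (AGGTCA or TGACCT), the CCAAT box (CCAAT or ATTGG) and the TATA box (TATAAA or TTTATA).
ABCA1, chr9:104928156-104928405, minus strand: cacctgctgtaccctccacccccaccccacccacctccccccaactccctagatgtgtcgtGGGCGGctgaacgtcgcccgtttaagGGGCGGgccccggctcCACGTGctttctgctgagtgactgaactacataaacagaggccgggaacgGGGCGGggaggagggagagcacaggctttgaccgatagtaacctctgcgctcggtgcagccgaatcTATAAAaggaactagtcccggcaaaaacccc
ABCB10, chr1:229558708-229558957, minus strand: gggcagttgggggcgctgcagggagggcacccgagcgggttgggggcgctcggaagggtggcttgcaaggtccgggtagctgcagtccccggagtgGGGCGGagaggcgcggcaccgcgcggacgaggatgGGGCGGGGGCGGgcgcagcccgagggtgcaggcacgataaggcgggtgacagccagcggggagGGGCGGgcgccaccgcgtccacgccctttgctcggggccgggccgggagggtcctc
ABCC4, chr13:95301452-95301701, minus strand: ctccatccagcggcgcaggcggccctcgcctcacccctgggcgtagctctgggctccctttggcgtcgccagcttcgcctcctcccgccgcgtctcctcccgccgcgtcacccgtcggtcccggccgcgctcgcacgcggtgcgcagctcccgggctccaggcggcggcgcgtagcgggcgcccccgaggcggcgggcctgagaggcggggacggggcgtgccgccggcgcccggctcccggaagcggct
ABCD3, chr1:94418139-94418388, plus strand: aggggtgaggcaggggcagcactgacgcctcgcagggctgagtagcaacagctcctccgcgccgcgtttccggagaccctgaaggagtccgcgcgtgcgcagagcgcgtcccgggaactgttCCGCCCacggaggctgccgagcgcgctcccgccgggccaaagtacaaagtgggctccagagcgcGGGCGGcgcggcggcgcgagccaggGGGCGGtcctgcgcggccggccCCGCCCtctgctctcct

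The 4 stretches held different letters. ABCA1 had 3 GC boxes, 1 E-box and 1 TATA box, whose first base lay 31 bases before the start. ABCB10 and ABCD3 had 4 GC boxes each and no other match. ABCC4 had no match to any of the 5 motifs, although it was the richest in G and C (80.4%) and held 42 CpG dinucleotides. ABCA1 was the least rich, at 61.6% and 16 CpG dinucleotides. Among 35116 such stretches of all annotated starts, 42.6% held a GC box, 6.34% an E-box, 12.1% a nuclear receptor half-site, 32% a CCAAT box and 10.7% a TATA box. A match is a description of the letters and not evidence of a bound factor.

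**Figure D1:**
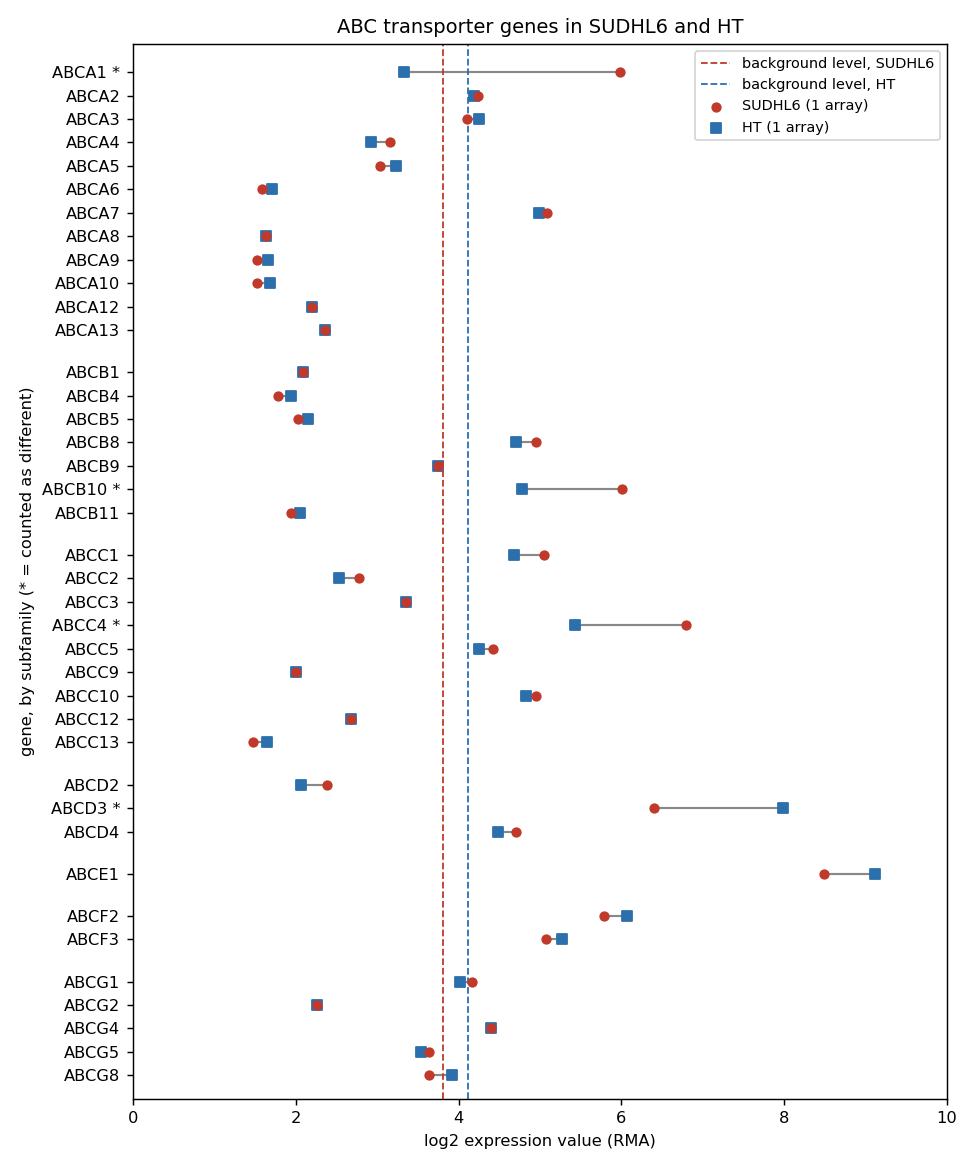
Log2 expression value of each of the 39 ABC genes in SUDHL6 (red circles) and HT (blue squares), 1 array each, grouped by subfamily, with the background level of each line as a dashed line (3.81 in SUDHL6, 4.11 in HT). The 4 genes with an asterisk were counted as different, and 22 genes do not reach the background level.

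Of the 39 genes, 17 reached the background level, or 43.6%, against 66.1% of all genes. Neither silence nor expression of a gene can be read from its side of this level. Of the 17, 11 had a higher value in SUDHL6, 5 a higher value in HT and 1 the same value in both, with a median difference of 0.12. The median of all genes that reached the level was -0.05, with a middle 50% from -0.38 to 0.22. Apart from the 4 counted genes, the 17 held differences between -0.62 and 0.37.

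In the ABCA subfamily of lipid transporters, 4 of 12 genes reached the background level. Of these, 1 was counted as higher in SUDHL6 and 0 as higher in HT. The median difference was 0.00 over the 12 genes and 0.07 over the 4. ABCA1 transfers cellular cholesterol and phospholipid to apolipoprotein A-I, the first step in forming high-density lipoprotein. Its values were 5.98 in SUDHL6 and 3.33 in HT, which differ by 2.66. The HT value lay below the background level, so the fold is given against that level, and the level in SUDHL6 was at least 3.65-fold that in HT. Of the 14232 genes, 90 had a larger difference in that direction.

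The other ABCA genes above the background level differed little. ABCA2, a transporter of endosomes and lysosomes linked to sterol handling, stood at 4.24 and 4.19 in SUDHL6 and HT. ABCA3, which loads surfactant lipid into the lamellar bodies of lung cells, stood at 4.10 and 4.25. ABCA7, the closest relative of ABCA1 and a factor in phagocytosis and phospholipid handling, stood at 5.08 and 4.99. Their differences were 0.05, -0.15 and 0.10. The remaining 8 genes were below the background level in both lines, among them ABCA4, the retinoid transporter of the retina (3.16 and 2.93), and ABCA12, the lipid transporter of the skin barrier (2.20 in both lines). ABCA5, ABCA6, ABCA8, ABCA9 and ABCA10 lie side by side on chromosome 17. These 5 genes stood between 1.52 and 3.04 in SUDHL6 and between 1.63 and 3.23 in HT, and their differences ran from -0.19 to 0.00.

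In ABCB, a subfamily of peptide, bile salt, drug and mitochondrial transporters, 2 of 7 genes reached the background level and 1 was counted as higher in SUDHL6. The 2 are both mitochondrial. ABCB10, a half-transporter of the inner mitochondrial membrane that haem-producing cells need, stood at 6.01 in SUDHL6 and 4.78 in HT and was 2.36-fold higher in SUDHL6. ABCB8, also of the inner mitochondrial membrane, stood at 4.96 and 4.70, a 1.19-fold difference. ABCB1, the multidrug efflux pump known as P-glycoprotein, was below the background level at 2.08 in both lines. ABCB4, the neighbour of ABCB1 and a phospholipid transporter of bile canaliculi, stood at 1.78 and 1.94. ABCB11, the bile salt export pump, stood at 1.94 and 2.05, and ABCB5 at 2.02 and 2.15. ABCB9, a lysosomal peptide transporter, stood at 3.75 in both lines, just under the background level. The median of the subfamily was 0.00, and that of the 2 genes that reached the background level was 0.75.

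In ABCC, the multidrug resistance proteins and their relatives, 4 of 9 genes reached the background level. All 4 had a higher value in SUDHL6, but the difference was at least 1 only for ABCC4. ABCC4 exports cyclic nucleotides, prostaglandins and nucleotide analogues. It had values of 6.79 in SUDHL6 and 5.43 in HT, 2.57-fold higher in SUDHL6. ABCC1, which exports glutathione conjugates and many anticancer drugs, stood at 5.05 and 4.68, a 1.29-fold difference. ABCC5, another exporter of cyclic nucleotides, stood at 4.42 and 4.25. ABCC10, a pump of lipophilic drugs, stood at 4.95 and 4.83. The other 5 were below the background level. ABCC2, the conjugate export pump of hepatocytes, stood at 2.78 and 2.53, and ABCC3, its basolateral counterpart, at 3.36 in both lines. ABCC9, the sulphonylurea receptor subunit of potassium channels, and ABCC12 stood at 2.0 and 2.67 in both lines. ABCC13, which RefSeq annotates as a transcribed pseudogene, stood at 1.47 and 1.65. The median of the subfamily was 0.12, and that of the 4 genes that reached the background level was 0.27.

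In ABCD the 2 genes above the background level went in different directions. ABCD3, the peroxisomal membrane protein PMP70 that imports fatty acyl-CoA and bile acid precursors, stood at 6.40 in SUDHL6 and 7.98 in HT and was 2.99-fold higher in HT. Its difference was -1.58, and 268 of the 14232 genes lay lower. ABCD4, which moves cobalamin out of lysosomes, stood at 4.71 and 4.48. ABCD2, a peroxisomal relative of ABCD3, was below the background level at 2.39 and 2.06. The median of the 3 genes was 0.23, and that of the 2 above the background level was -0.68.

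The 3 members of ABCE and ABCF, whose proteins act in translation, reached the background level, had a higher value in HT and differed by less than 1. ABCE1 splits ribosomes after termination and was measured with values of 8.48 in SUDHL6 and 9.11 in HT and a difference of -0.62. ABCF2 stood at 5.79 and 6.07, a difference of -0.29. ABCF3 stood at 5.07 and 5.27, a difference of -0.20. ABCF1, no member because its probe set also names MIR877, stood higher in SUDHL6 on that probe set, at 7.43 against 6.73, a difference of 0.70. RefSeq places the start of ABCF2 at the same position as that of a read-through gene with H2BK1, so their RNAs may not be separated.

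No ABCG gene was counted as different. ABCG1, which exports sterol to high-density lipoprotein, stood at 4.16 in SUDHL6, above the background level, and at 4.02 in HT, below it. ABCG4, a related sterol transporter of the brain, stood at 4.40 in both lines. ABCG2, the breast cancer resistance protein that exports drugs and urate, was below the background level at 2.27 in both lines. ABCG5 and ABCG8, the paired sterol transporters of intestine and liver, stood at 3.64 and 3.54 and at 3.64 and 3.91, also below it. The median of the 5 genes was 0.00, and that of the 2 that reached the background level was 0.07.

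**Figure D2:**
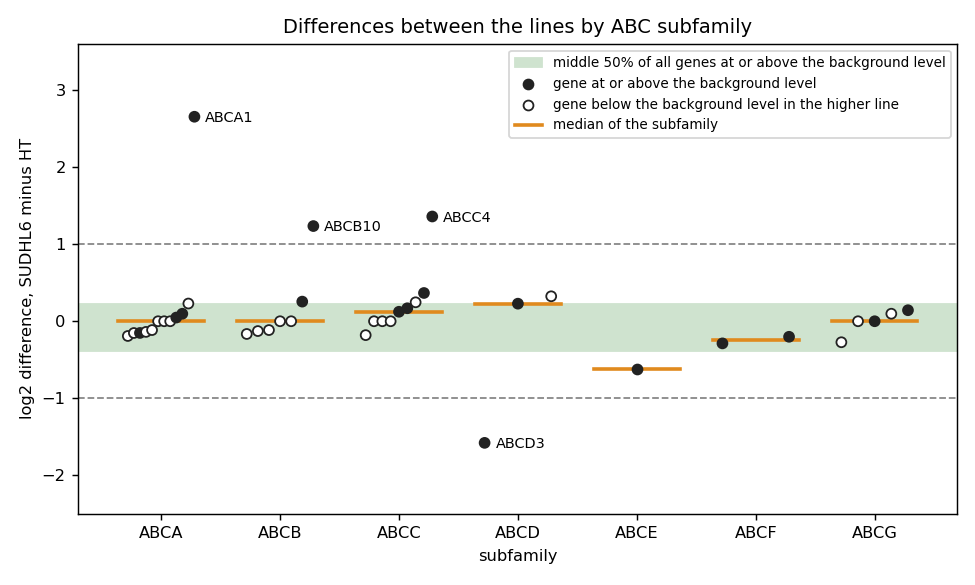
Log2 difference (SUDHL6 minus HT) of each ABC gene by subfamily. Filled circles are genes at or above the background level and open circles are genes below it. Orange bars are the medians over all genes of a subfamily, and dashed lines stand at -1 and 1. The green band is the middle 50% of all genes at or above the background level (-0.38 to 0.22), and ABCA1, ABCB10, ABCC4 and ABCD3 lie outside the dashed lines.

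Many ABC genes had exactly the same deposited value on both arrays. This held for 10 of the 39 genes (25.6%), against 3.80% of all genes. Of the 10, 9 were below the background level, ABCB1 and ABCG2 among them, and the other was ABCG4. Among all genes, values were equal for 7.31% below the background level and 2.0% at or above it. No direction between the lines can be read for these 10 genes.

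Genes of the pathways that ABC proteins serve were placed beside the family. TAP1 and TAP2 encode the ABC peptide pump that feeds class I molecules, and CFTR is an ABC protein that works as a chloride channel, but their symbols lie outside the family's naming rule. TAP1 stood at 5.15 in SUDHL6 and 5.98 in HT, TAP2 at 5.40 and 5.31, and CFTR below the background level at 2.40 and 2.65. Among 6 genes of peptide loading, 1 was higher in SUDHL6 and 1 in HT, beside 3.50% and 4.62% of all genes. ERAP2, a peptide-trimming peptidase, stood at 7.06 and 5.59, and the chaperone gene CALR at 8.71 and 9.87. The median was 0.11.

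Genes of liver X receptor signalling and cholesterol handling, the setting in which ABCA1 and ABCG1 are known, gave 1 counted gene in each direction, again beside 3.50% and 4.62% of all genes. Liver X receptors sense oxysterols and are known to induce ABCA1, ABCG1, MYLIP, SREBF1 and LPCAT3. MYLIP, a ubiquitin ligase that degrades the lipoprotein receptor, stood at 7.07 in SUDHL6 and 5.64 in HT, 2.70-fold higher in SUDHL6. LPCAT3, a phospholipid remodelling enzyme, stood at 7.0 and 8.37, 2.57-fold higher in HT. The receptor gene NR1H3 stood at 4.72 and 4.56 and the target gene SREBF1 at 5.04 and 5.19, both chosen after their values were seen. Of the targets named, ABCA1, ABCG1 and MYLIP had their higher value in SUDHL6, and LPCAT3 and SREBF1 in HT. A part of the receptor in these values was not tested. Of 10 genes of this list with a value, 9 reached the background level. Of these 9, 7 had a higher value in SUDHL6. Their median was 0.50, against -0.05 for all genes that reached the level. The median of the 10 was 0.47, against -0.04 over all genes.

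Genes of glutathione synthesis and conjugation, whose products ABCC1, ABCC2 and ABCC4 can export, were the list with the most counted members. Of 13 genes with a value, 11 reached the background level, 6 were counted as higher in HT and 0 as higher in SUDHL6, where 4.62% and 3.50% of all genes were counted. MGST2, a microsomal glutathione transferase, stood at 4.54 in SUDHL6 and 6.87 in HT, 5.04-fold higher in HT. GSTO1, an omega-class transferase, stood at 3.24 and 4.90, at least 2.13-fold higher in HT. GSTA4, which detoxifies lipid aldehydes, stood at 4.67 and 5.87, 2.30-fold higher in HT. The other 3 had differences from -1.03 to -1.17, close to the threshold. Whether they would still be counted under other scaling was not tested. The median was -0.14 over the 13 and -1.03 over the 11 that reached the background level. The exporters ABCC1 and ABCC4 had their higher value in the other line, with differences of 0.37 and 1.36.

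Genes of haem and iron-sulfur cluster synthesis were set beside the mitochondrial transporters. Of 11 with a value, 10 reached the background level, 2 were higher in HT and 0 in SUDHL6, beside 4.62% and 3.50% of all genes. SLC25A37, the mitochondrial iron importer known to act with ABCB10, stood at 5.20 in SUDHL6 and 6.73 in HT and was 2.88-fold higher in HT, the line in which ABCB10 was lower. UROD, an enzyme of haem synthesis, stood at 4.91 and 6.09 and was 2.27-fold higher in HT. The median was -0.26.

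Of the peroxisome list, set beside ABCD3, 0 genes were counted, where 8.12% of all genes were. Of 13 genes with a value, 12 reached the background level, and differences ran from -0.74 to 0.64 with a median of 0.11. HSD17B4, an enzyme of peroxisomal beta-oxidation, stood at 8.81 in SUDHL6 and 8.54 in HT. CAT, the catalase of peroxisomes, stood at 7.15 and 7.46.

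In translation initiation and ribosome recycling, the setting of ABCE1 and ABCF proteins, 1 gene was higher in SUDHL6 and 2 in HT, beside 3.50% and 4.62% of all genes. EIF2AK3, the kinase that slows translation under stress of the endoplasmic reticulum, stood at 8.01 in SUDHL6 and 5.66 in HT, 5.11-fold higher in SUDHL6. EIF2AK4, the kinase that senses amino acid shortage, stood at 4.79 and 5.82, and EIF2S1, the subunit that these kinases phosphorylate, at 8.52 and 9.54. Both were about as far apart as the threshold, at -1.03 and -1.02. Of 12 genes with a value, 9 were lower in SUDHL6, and the median was -0.47, against -0.04 over all genes.

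Of 14 genes that make or break down sphingosine 1-phosphate, prostaglandins and cyclic nucleotides, several of which ABCC4 can export, 8 reached the background level. SGPL1, the lyase that destroys sphingosine 1-phosphate, stood at 7.14 in SUDHL6 and 8.63 in HT, 2.82-fold higher in HT. This 1 gene higher in HT and 0 in SUDHL6 stood beside 4.62% and 3.50% of all genes, and the median was -0.13.

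**Figure D3:**
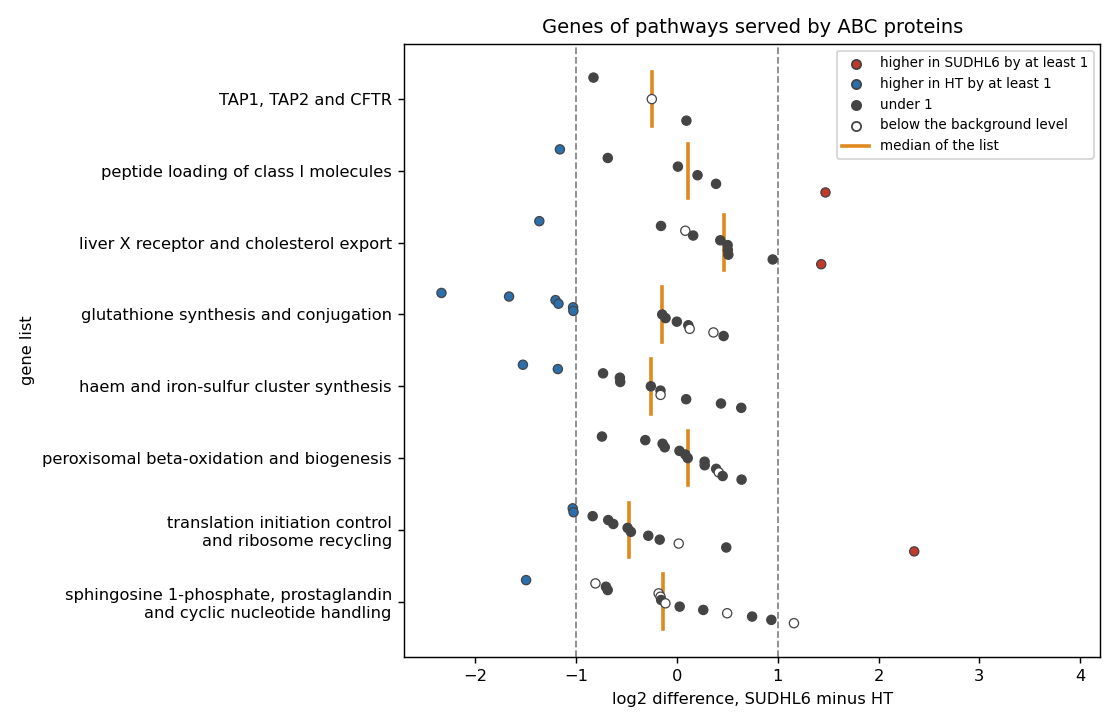
Log2 difference (SUDHL6 minus HT) of each gene with a value in the lists set beside the ABC family, with red for genes counted as higher in SUDHL6, blue for genes counted as higher in HT, grey for smaller differences, open circles for genes below the background level and orange bars for medians. The glutathione list has 6 blue genes and no red one, and the peroxisome list has no coloured gene.

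The genes next to the 4 ABC genes are given as a description of each region, since the 4 were chosen for their difference and their neighbours were not. For each, the 5 nearest protein-coding genes with a value on either side were taken from the RefSeq order. Around ABCB10, 8 of 10 neighbours reached the background level, and differences ran from -0.45 to 0.20 with a median of -0.11. Around ABCC4 they ran from -0.62 to 0.17, and around ABCD3 from -0.34 to 0.27. Around each of ABCC4 and ABCD3 only 4 of 10 neighbours reached the background level, and the rest could not be counted. In these 3 regions 0 neighbours were counted, where 8.12% of all genes were. Among the neighbours of ABCD3 were ABCA4 and GCLM, the modifier subunit of glutathione synthesis, at 5.51 in SUDHL6 and 5.66 in HT. Around ABCA1, too, 4 of 10 neighbours reached the background level. One of them, the ion channel gene TMEM38B, was counted as different and was 2.32-fold higher in HT, the direction opposite to ABCA1. SLC44A1, a choline transporter gene next to ABCA1, stood at 6.49 and 5.78. Of the 10 neighbours, 4 were olfactory receptor genes, which also entered the background level.

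**Figure D4:**
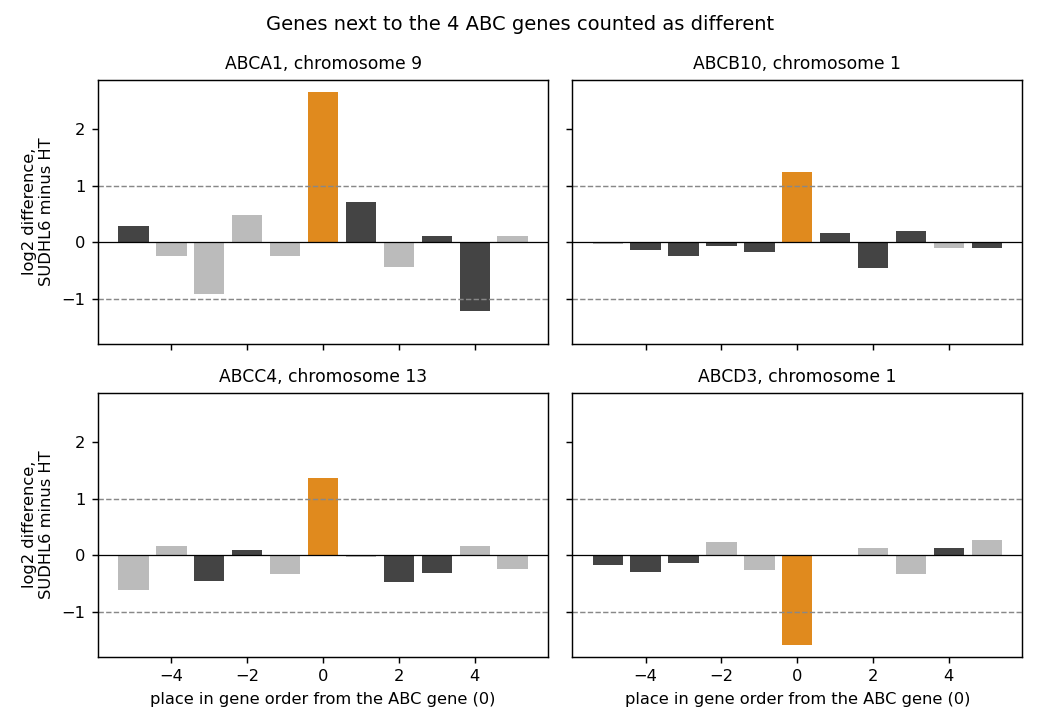
Log2 difference (SUDHL6 minus HT) of ABCA1, ABCB10, ABCC4 and ABCD3 (orange, place 0) and of the 5 protein-coding genes with a value on either side in gene order (dark grey at or above the background level, light grey below it), with dashed lines at -1 and 1. The ABC genes were chosen for lying beyond a dashed line, and TMEM38B beside ABCA1 is the one neighbour that does too.

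The promoter letters of the family differed with its RNA level. RefSeq start stretches were at hand for 31 of the 39 genes, and the start lying furthest upstream was used where a gene had several. The 15 genes at or above the background level had a median of 24 CpG dinucleotides in the 250 bases before the start, with a lowest of 12 and a highest of 42. The 16 genes below it had a median of 2. All genes with a value showed the same order, with medians of 21 and 8. Exceptions in the family were ABCA5, with 42 CpG dinucleotides, and ABCB9, with 27, both below the background level. A GC box was present in 11 of the 15 genes (73.3%) and in 4 of the 16 (25%), beside 66.1% and 41.6% of all genes with a value at or above and below the level. No nuclear receptor half-site of the exact letters was present in any of the 31, which says only that these letters are not in these windows.

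**Figure D5:**
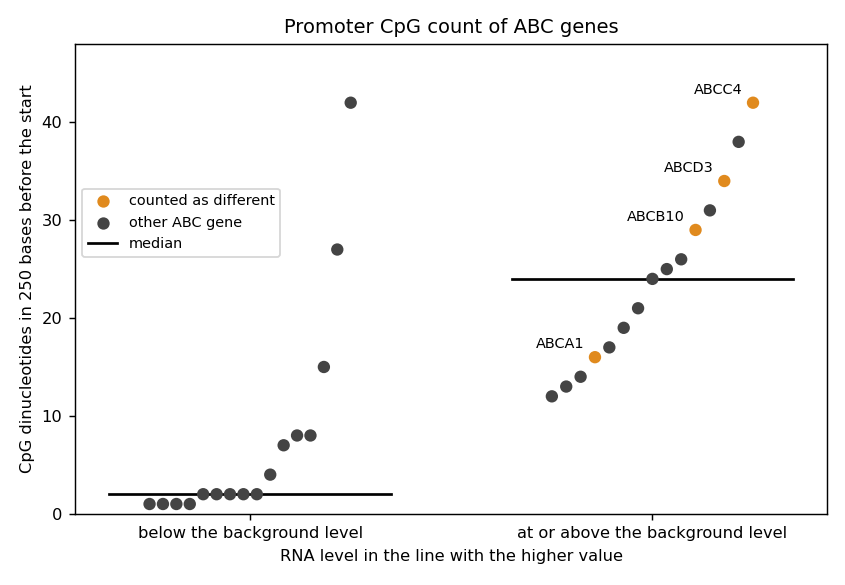
CpG dinucleotides in the 250 bases before the start of 31 ABC genes, split by whether the RNA reached the background level, with black bars for medians (2 and 24) and orange for the 4 genes counted as different. The 4 orange genes run from 16 for ABCA1 to 42 for ABCC4, and the other genes at or above the background level from 12 to 38.

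The labelled cell type was checked on marker lists. All 9 measured B cell markers reached the background level, and 1 was counted as different, MS4A1 (CD20), at 11.33 in SUDHL6 and 8.75 in HT. The T cell receptor complex genes CD3D, CD3E and CD3G were below the background level in both lines. The T cell markers CD5, CD7, CD8A and LCK reached it, LCK at 5.65 in SUDHL6 and 6.62 in HT and CD7 at 5.49 and 5.73. So did KRT8 of the epithelial list, at 8.27 and 8.12, and APOA1 of the hepatocyte list, at 5.83 and 5.86. Of the genes in other lists, 4 of 9 T cell, 2 of 6 NK cell, 2 of 6 myeloid, 1 of 6 hepatocyte and 3 of 7 epithelial markers reached it, and none of these was counted as different. In the fibroblast and endothelial list 4 of 7 reached it, and LUM and DCN were counted as higher in HT, at 6.22 against 2.38 and 5.05 against 2.09. The levels of that list ran from 2.09 to 4.55 in SUDHL6 and from 2.44 to 6.22 in HT, and the part of such genes in the ABC values was not tested.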

How the data were processed

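The deposited table holds log2 expression values of 22011 probe sets for 1 array of SUDHL6 and 1 of HT. Per the submitters' processing notes the authors made them with RMA, which corrects background, normalizes arrays and summarises probes, and with Affymetrix Expression Console. Neither versions nor the genome build nor the number of arrays run through RMA together are stated in the sources read here. The column medians were 4.57 and 4.58.

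Probe sets were named from GEO's platform annotation, and symbols were updated by gene number to RefSeq, GRCh38.p14, which matched all 39 ABC genes. Of 16840 annotated probe sets, 14432 named 1 gene. Several probe sets of a gene were reduced to that with the highest mean (197 genes, no ABC gene among them). Folds are 2 to the power of the difference, and a value below the background level was replaced by that level ("at least"). RMA compresses differences of dim genes. Of the olfactory receptor differences, 95% lay between -1.03 and 1.26. The difference of ABCB10 lay within this range, and those of ABCA1, ABCC4 and ABCD3 lay outside it. Python 3.11.15, pandas 2.3.3 and statsmodels 0.14.6 were used.

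The ABC genes and all lists were chosen with earlier results of these data known. Each of the 39 ABC genes is given or counted. Each further list names up to 3 counted genes with the largest difference, or its 2 genes with the highest mean. Alternatives were quantile and loess scaling, raised dim values, other background levels and thresholds, other handling of probe sets and no filter.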

Additional observations from a re-analysis of the deposited data

How the results depend on the processing

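The 3 ABC genes counted as higher in SUDHL6 and the 1 higher in HT were the same genes under quantile and loess scaling, with dim values raised, with background levels at the 90th and 99th percentile, with the mean of all probe sets, with probe sets naming several genes included and with no filter. With a difference of at least 1.5, 1 gene (ABCA1) was higher in SUDHL6 and 1 (ABCD3) in HT, where 3.93% of all genes were counted. With a difference of at least 0.58, 2 genes (ABCD3 and ABCE1) were higher in HT and 3 in SUDHL6. At that threshold 18.3% of all genes were counted. Over all genes, the main rule counted 498 as higher in SUDHL6 and 657 as higher in HT. These counts were 576 and 568 under quantile scaling and 581 and 563 under loess scaling. The lists set beside the family were not counted again under the alternatives. Over the alternatives the difference ran from 1.87 to 2.71 for ABCA1, from 1.24 to 1.30 for ABCB10, from 1.36 to 1.47 for ABCC4 and from -1.58 to -1.45 for ABCD3. The 1.87 came from raising the dim HT value of ABCA1. Raising gave ABCD a median of -0.30, and likewise ABCA, ABCB, ABCC and ABCG, since a gene dim in both lines then takes the difference of the 2 background levels. Other subfamily medians over all members moved by less than 0.46, a robust SD of the olfactory receptor differences. This SD is only a yardstick. It comes from mostly dim genes on 1 array of each line and holds no spread between cultures. Of the 17 genes above the background level, the sign changed only for ABCG4, equal before scaling, under quantile and loess scaling, and for ABCA3 with shared probe sets included. No paired analysis was possible because each line has 1 array. Signal over background limits the 22 genes below the background level. Their values enter the medians over all genes of a subfamily. No order between the lines is read from any of them.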

Other observations

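Several ABC genes had a value only, or also, on probe sets that name other genes too, so these values cannot be assigned to them. The probe set of ABCF1, a regulator of translation initiation, also names the microRNA gene MIR877. The probe set of ABCB6, a porphyrin transporter gene, is shared with ATG9A and stood at 4.82 and 5.02. The probe sets that ABCC8 shares with SDHC and ABCC11 with LONP2 lay below the background level. A probe set of ABCA3, CCNF and ABCA17P differed by 0.15, with the opposite sign to the probe set of ABCA3 alone. The pseudogene ABCA11P shares a probe set with ZNF721 that stood at 6.96 and 6.08.

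Dim ABC genes also had differences that other genes on the arrays repeated. Of the 13 ABC genes below the background level whose values were not equal, 9 (69.2%) had a difference that another gene repeated to the fifth decimal, against 35.4% of all such genes. ABCA6 and ABCB11, which lie on chromosomes 17 and 2, shared the difference -0.11 with 19 other genes, and 20 genes held the difference of ABCB5, -0.13. At or above the background level the repeated shares were 2 of 16 ABC genes and 13.8% of all genes. None of ABCA1, ABCB10, ABCC4 and ABCD3 had a repeated difference.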
